A study of Mus musculus with 2 samples.

Results

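Osteopontin and 3 of its receptor genes were followed in single microglia, which are the macrophages that reside in the brain, sorted from corpus callosum during demyelination. The 4 genes, Spp1 for osteopontin, Cd44, and the integrin chains Itgav and Itgb5, were taken by symbol from the 27998 gene IDs (27933 symbols) of the deposited matrices, and each symbol was carried by 1 gene ID. Both libraries came from C57Bl6 mice with the genotype given as CX3CR1 that had been fed cuprizone for 4 weeks, a copper chelator that kills oligodendrocytes and so strips myelin from white matter. The medial library was made from microglia of the medial corpus callosum and the lateral library from microglia of the lateral corpus callosum, 1 library each. The sources used here do not give the allele behind the genotype, the number and age of the mice or the gate of the cell sort, and an undemyelinated group was not analysed here.

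Osteopontin is a secreted, heavily phosphorylated glycoprotein first known from bone matrix. Cells bind it through an RGD motif, which integrins such as alpha v beta 5 (the Itgav and Itgb5 chains) and alpha v beta 3 recognise, through a neighbouring motif for alpha 4 and alpha 9 integrins, and through CD44, a receptor better known for binding hyaluronan. In the brain, microglia and invading macrophages are known to raise Spp1 around damaged myelin, in injury and in ageing, and the gene is used as a marker of disease-associated microglia. Alpha v beta 5 also takes part in the uptake of dying cells by phagocytes.

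The upstream sequences of the 2 abundant members are shown because one varied widely between cells and the other was even across them. Each line holds the 250 bases before the first RefSeq start site of the gene (GRCm38.p6, plus strand), in lower case, with capitals for a match to the PU.1 core, GAGGAA or its reverse TTCCTC. PU.1 is a transcription factor of the macrophage lineage. The Spp1 stretch is chr5:104434861-104435110 and the Itgb5 stretch chr16:33829415-33829664.
Spp1: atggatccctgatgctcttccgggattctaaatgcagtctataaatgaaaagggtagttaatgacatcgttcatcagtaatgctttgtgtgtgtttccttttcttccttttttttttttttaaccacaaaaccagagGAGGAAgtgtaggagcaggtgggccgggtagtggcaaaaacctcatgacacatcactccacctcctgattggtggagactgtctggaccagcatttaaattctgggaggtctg
Itgb5: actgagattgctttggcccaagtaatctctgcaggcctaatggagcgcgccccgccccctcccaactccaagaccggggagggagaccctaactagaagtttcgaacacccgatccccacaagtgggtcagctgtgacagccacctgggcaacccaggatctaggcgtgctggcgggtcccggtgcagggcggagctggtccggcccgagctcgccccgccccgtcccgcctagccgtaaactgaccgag
The Spp1 stretch held 1 match, beginning 113 bases before the start, and the Itgb5 stretch held none. The same window held 2 matches each for Cd44 and Itgav, and none at the other annotated start of Spp1. Of 32851 promoters of the same length, 23.3% held that core on either strand. Matches were also sought on both strands for the AP-1 site TGAGTCA (4.46% of promoters), the E-box CATGTG (12.3%) and the E-box CACGTG (6.02%), and neither stretch held these letters.

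Cells were barcodes with at least 2400 UMIs and at most 10% mitochondrial UMIs: 2131 in the medial library (median 10732 UMIs) and 2308 in the lateral one (median 9694). UMIs, unique molecular identifiers, count captured transcripts once each by their 3' end, so levels are given as CPM, UMIs scaled to the total UMIs of the cells of a library, with no scaling by gene length, and capture can still differ from gene to gene. The libraries shared 7 cell barcodes. Markers of microglia came to 164 per 10000 UMIs for the medial and 161 for the lateral library, with 0 of the 8 marker genes at 0, against at most 1.14 and 0.981 for any of 15 lists of other cell types. The endothelial list was the highest of these, through Pecam1 and Flt1, while its defining genes Cldn5 and Ly6c1 were at 1 and 0 UMIs medial and at 0 in the lateral cells. In the border macrophage list, Cd163 and Lyve1 were at 0 UMIs in both libraries and Pf4 and Ms4a7 gave nearly all of the signal. With 1 library per region there is no test between regions, and the 95% intervals given in parentheses cover counting error and nothing else.

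Spp1 (ENSMUSG00000029304, chromosome 5, 104435118 to 104441050, plus strand, GRCm38) was among the most abundant transcripts of both libraries. It stood at 4548 CPM (4520 to 4575.1) in medial and 5396 CPM (5366 to 5426) in lateral cells, ranks 20 and 15 among all genes. The gene model Gm42793 overlaps Spp1 on the same strand, and reads from the shared bases cannot be told apart. Itgb5 (ENSMUSG00000022817, chromosome 16, 33829665 to 33949338, plus strand), the beta chain that pairs with alpha v, was at 1188 CPM (1174 to 1202) and 1226 CPM (1212 to 1240). Its partner Itgav (ENSMUSG00000027087, chromosome 2, 83724397 to 83806916, plus strand), the alpha v chain, was far lower, at 33.1 CPM (30.9 to 35.6) and 30.2 CPM (28.04 to 32.6). Cd44 (ENSMUSG00000005087, chromosome 2, 102811141 to 102901665, minus strand) was the lowest, at 23.5 CPM (21.6 to 25.6) and 24.8 CPM (22.8 to 26.9). The order Spp1, Itgb5, Itgav, Cd44 held in both libraries, with no overlap of counting intervals between neighbours. Counting at the 3' end does not separate the splice forms of Cd44, of which the annotation lists 8 coding transcripts.

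**Figure D1:**
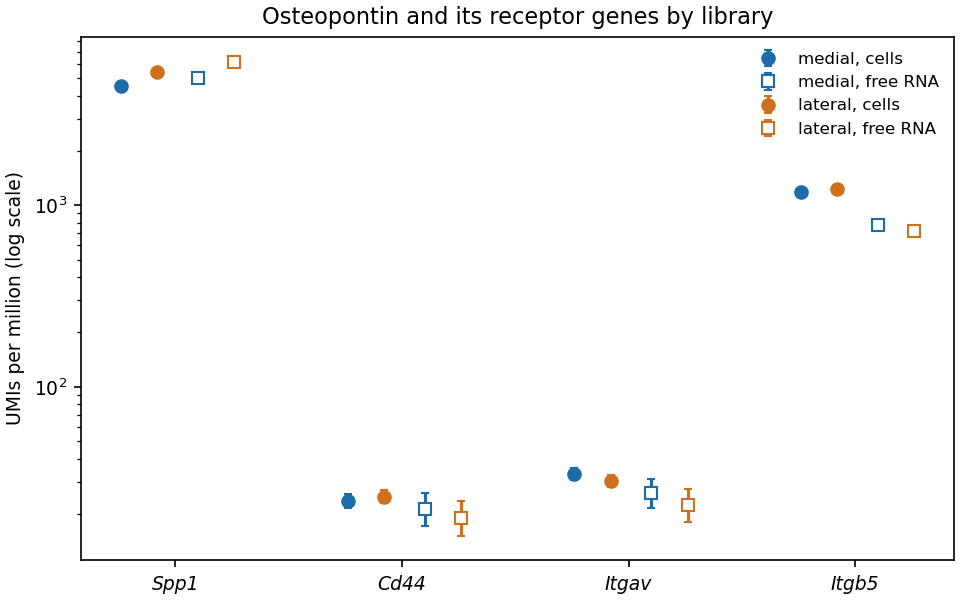
Level of the 4 genes in CPM on a log axis, in cells (filled circles) and in free RNA (open squares) of the medial and lateral libraries, with 95% Poisson intervals. Spp1 lies between 4548 and 6181, Itgb5 at 1188 and 1226 in cells, and Itgav and Cd44 between 18.96 and 33.1.

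Between the regions, Spp1 was 1.19 times as high in the lateral as in the medial library (1.18 to 1.196), a log2 ratio of medial over lateral of -0.25 (-0.26 to -0.23). The receptors were closer to equal. Itgb5 had a log2 ratio of -0.04 (-0.07 to -0.02), Cd44 of -0.08 (-0.25 to 0.10) and Itgav of 0.13 (-0.02 to 0.28). None of the 4 members reached a ratio of 1.2 in either direction, which 14.9% of 9843 genes with at least 100 UMIs did, 7.42% on the medial and 7.49% on the lateral side. The ratio of Spp1 lay at percentile 9.03 of those genes, whose median log2 ratio was -0.04. The value for Spp1 is near that limit: it was -0.33 without cells holding marker sets of other cell types and -0.27 with a mitochondrial limit of 5%, both past a ratio of 1.2, and -0.17 with all cells thinned to 4000 UMIs.

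Free RNA carried Spp1 at a level like that of the cells. Barcodes with at most 100 UMIs, which hold RNA outside intact cells, had Spp1 at 5042 CPM (4976 to 5109) in the medial and 6181 CPM (6106 to 6257) in the lateral library, 1.11 and 1.15 times the level in cells. The median gene with at least 100 UMIs had a free level of 0.921 and 0.922 times that in cells. In free RNA, too, Spp1 was higher in the lateral library, by 1.23 times. Itgb5 was lower in free RNA than in cells, at 783 CPM (757 to 809) medial and 720 CPM (695 to 747) lateral. Itgav was at 25.99 CPM (21.4 to 31.2) and 22.3 CPM (18.01 to 27.3), and Cd44 at 21.2 CPM (17.1 to 25.97) and 18.96 CPM (15.01 to 23.6). Free and cell intervals overlapped for Cd44 in both libraries and for Itgav in the medial one. The part of free RNA in low Spp1 counts was not tested; with 5% of the UMIs of cells taken as free RNA, an alternative added after seeing the data, the log2 ratio of Spp1 was -0.24.

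Spp1 was spread very unevenly over the cells. To compare cells at 1 depth, each was thinned at random to 4000 UMIs, which left out 148 medial and 261 lateral cells. At that depth a medial cell held a median of 5 Spp1 UMIs, with a 10th percentile of 1, a 90th of 44 and a highest count of 504. In lateral cells the median was also 5 and the 10th percentile 1, while the 90th percentile was 55 and the highest count 482. In one medial cell Spp1 took 12.8% of all UMIs, and in one lateral cell 12.5%. The 10% of cells with most Spp1 held 56.6% of the Spp1 UMIs of the medial library and 58.2% of those of the lateral library.

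The variance of Spp1 over cells was 72.6 times its mean in the medial and 77.8 times in the lateral library, where counting alone gives 1. Among the 25 medial and 19 lateral genes of like mean (0.67 to 1.5 times that of Spp1), the median of this index was 2.27 and 2.78 and the highest 7.21 and 6.39. Itgb5 behaved otherwise, with an index of 1.46 and 1.32, near the medians of 1.40 and 1.44 over 89 and 87 genes of like mean. A medial cell held a median of 4 and a lateral cell a median of 5 Itgb5 UMIs, with 10th and 90th percentiles of 2 and 8 in both libraries. Cd44 and Itgav had indices of 1.13 and 1.06 in medial and 1.07 and 1.02 in lateral cells. Counts this low keep the index near 1 for most genes, and the median over genes of like mean was 1.02 each time. Of those genes, 124 of 2183 medial and 319 of 2204 lateral lay above Cd44. Above Itgav lay 471 of 2062 medial and 1131 of 2045 lateral genes.

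**Figure D2:**
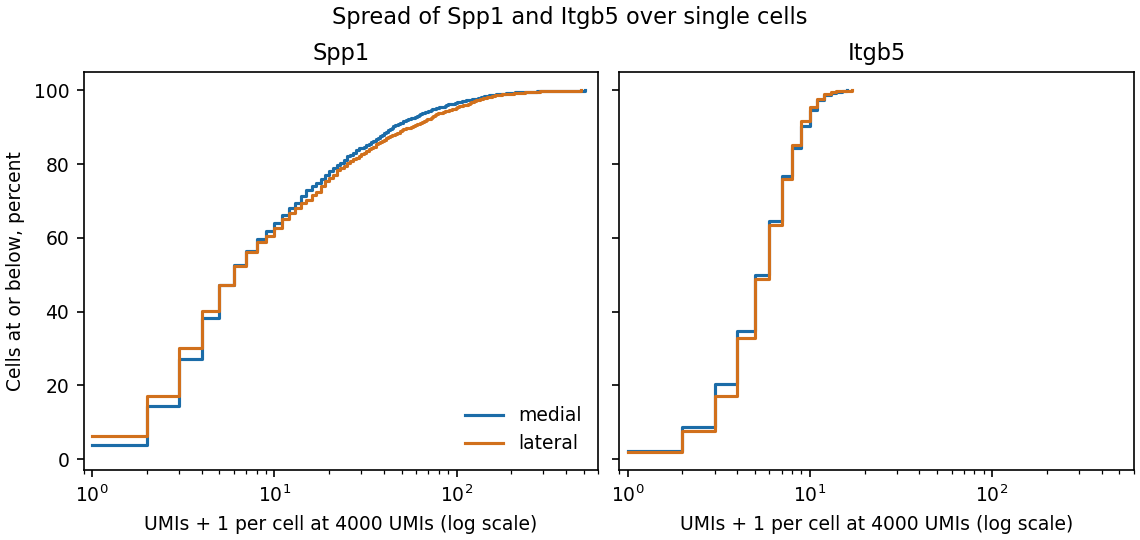
Cumulative percent of cells against UMIs plus 1 per cell, on a log axis, for Spp1 and Itgb5 in cells thinned to 4000 UMIs, medial and lateral. Spp1 reaches from 0 to 504 UMIs with a median of 5, Itgb5 from 0 to 16, and the Spp1 90th percentile is 44 medial and 55 lateral.

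Most Spp1 UMIs came from the cells highest in Spp1, in both libraries. Cells with at least 40 Spp1 UMIs at 4000 made up 11.5% (10.1 to 12.98) of medial and 13.4% (11.99 to 14.99) of lateral cells, and gave 26.3 and 32.6 of the 43.8 and 49.3 Spp1 UMIs per 10000. The intervals of these shares overlap, and the bands were cut on the same Spp1 counts, so they describe where the UMIs lay and test nothing. Cells with 0 to 4 made up 47.4% of medial and 47.3% of lateral cells, and those with 20 to 39 made up 10.4% and 10.3%. At the low end the order turned: 3.93% of medial and 6.25% of lateral cells had no Spp1 UMI at this depth. The counting interval of the Spp1 level does not cover which of these few cells were captured.

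Nearly all cells held at least 1 Spp1 UMI. Without thinning, Spp1 was found in 99.2% (98.7 to 99.5) of medial and 98.7% (98.1 to 99.1) of lateral cells, and at 4000 UMIs in 96.1% and 93.7%. The libraries hold no other cell type that should lack Spp1, so the free RNA is the only background at hand. Spp1 exceeded its level in the free RNA of the same library in 20.9% (19.2 to 22.7) of medial and 19.5% (17.9 to 21.2) of lateral cells. That level is what a barcode of free RNA alone would show, so these are not the shares of cells above background. In the cells lowest in Spp1 (0 to 2 UMIs at 4000; 539 medial and 616 lateral cells) its mean level was 331 and 306 CPM, which is 6.57% and 4.94% of the free level.

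Itgb5 was found in 99.4% of medial and 99.1% of lateral cells, against 27.5% (25.6 to 29.4) and 25.8% (24.01 to 27.6) for Itgav and 20.3% (18.6 to 22.0) and 19.4% (17.8 to 21.0) for Cd44. At 4000 UMIs those shares were 97.8% and 98.1% for Itgb5, 11.6% and 12.5% for Itgav, and 9.18% and 9.18% for Cd44, so a cell with no Itgav or Cd44 UMI at this depth may still express the gene. All 3 receptor genes were seen in 1.01% of medial and 0.830% of lateral cells, and none of them in 1.66% and 1.42%. Itgav and Itgb5 were seen together in 11.3% of medial cells, where the product of their shares is 11.4%, and in 12.2% of lateral cells, where it is 12.3%. Itgb5 was seen in 97.0% of medial cells with an Itgav UMI and 97.9% of those without, and in 97.7% and 98.2% of lateral cells. With Itgb5 in nearly all cells, the joint share could hardly differ from the share of Itgav. It therefore cannot show whether the chains go together. At this depth Itgav gave 0.128 UMIs per medial and 0.135 per lateral cell.

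Itgb5 was slightly lower in the cells highest in Spp1 than in those lowest, in both libraries. The intervals of each receptor gene overlapped between those groups, which does not show that the levels were equal. When the cells were ordered by Spp1 at 4000 UMIs, Itgb5 came to 12.3 of 10000 other UMIs (11.8 to 12.8) in the lowest group of medial cells and to 11.5 (10.96 to 12.04) in the highest. In lateral cells it was 12.2 (11.8 to 12.6) in the lowest and 11.5 (10.97 to 12.03) in the highest group. Cd44 was at 0.204 (0.148 to 0.274) and 0.275 (0.198 to 0.372) in medial cells, and at 0.191 (0.140 to 0.254) and 0.258 (0.185 to 0.350) in lateral cells. Itgav was at 0.302 and 0.393 in medial but 0.349 and 0.289 in lateral cells. The lowest group held 539 medial and 616 lateral cells and the highest 388 and 405, since whole-number counts tie.

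The genes whose counts followed Spp1 most closely over the cells were Cd63, Gpnmb and Igf1, and P2ry12 ran most against it. Likeness was taken as Pearson's r of log2(UMIs + 1) over 1983 medial or 2047 lateral cells at 4000 UMIs, the lower of both libraries, for 2414 genes; cells of a library share its free RNA, and Spp1 itself takes part of each fixed total. The 10 genes most like Spp1 were the tetraspanin Cd63 (r = 0.30 medial, 0.30 lateral), Gpnmb, a glycoprotein of phagosomes (0.29, 0.31), the growth factor Igf1 (0.29, 0.27), the fatty acid binding protein Fabp5 (0.27, 0.31), the cathepsin Ctsb (0.27, 0.25), Wfdc17 (0.23, 0.24), the galectin Lgals3 (0.29, 0.23), Apoe (0.23, 0.30), Ms4a6c (0.19, 0.19) and Fcer1g (0.18, 0.18). The 5 genes at the other end were P2ry12, an ADP receptor of resting microglia (-0.27, -0.27), Selplg (-0.22, -0.26), Tmem119 (-0.22, -0.26), Marcks (-0.18, -0.18) and Ltc4s (-0.18, -0.17). No gene reached a likeness of 0.15 for Cd44, Itgav or Itgb5. With Itgb5, Ctsd had an r of 0.18 in lateral and Psap of 0.16 in medial cells, but lower values in the other library. Cd44 and Itgav had means of 0.101 and 0.128 UMIs per medial cell, and counts that low keep r small. The result therefore does not show that no gene follows Cd44 or Itgav.

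Levels across the Spp1 order show the size of these relations. Gpnmb was at 2.97 per 10000 other UMIs (2.75 to 3.21) in the medial cells lowest in Spp1 and 9.60 (9.11 to 10.1) in those highest, and at 2.17 (1.99 to 2.36) and 8.47 (8.02 to 8.93) in lateral cells. Lgals3 was at 1.62 and 5.57 in medial and at 1.92 and 4.50 in lateral cells. P2ry12 went from 5.63 (5.32 to 5.95) to 2.27 (2.04 to 2.53) in medial and from 6.20 (5.89 to 6.51) to 3.03 (2.76 to 3.31) in lateral cells. Although Gpnmb followed Spp1 within both libraries, it stood at 569 CPM in medial and 444 CPM in lateral cells (log2 ratio 0.36), the reverse of the order of Spp1. Apoe and Ms4a6c were likewise higher in the medial library (log2 ratios 0.20 and 0.14), while Cd63, Igf1, Fabp5, Ctsb, Wfdc17, Lgals3 and Fcer1g had log2 ratios between -0.30 and -0.07.

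**Figure D3:**
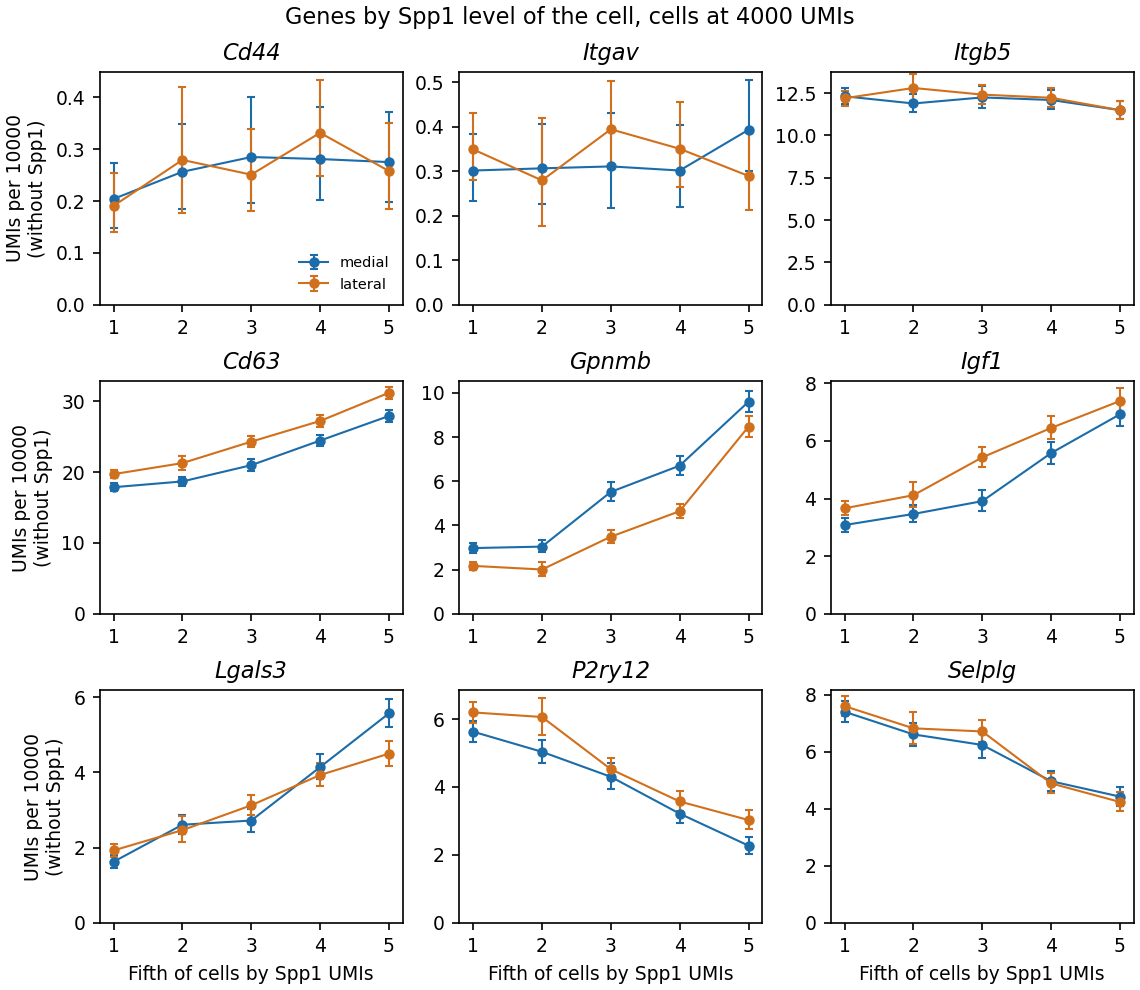
Level of each gene per 10000 UMIs other than Spp1 in 5 groups of cells ordered by Spp1 (1 lowest, 5 highest), thinned to 4000 UMIs, medial and lateral, with 95% Poisson intervals. Between groups 1 and 5 the intervals overlap for Cd44 (0.204 and 0.275 medial), Itgav and Itgb5, with Itgb5 slightly lower in group 5 in both libraries. Gpnmb goes from 2.97 to 9.60 and P2ry12 from 5.63 to 2.27 in medial cells.

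Spp1 also differed between cell states defined without it. For each of 8 gene lists, cells were ordered by the UMIs of the list at 4000 UMIs, and the upper 25% were set against the lower 25% within a library. Tied counts make the groups larger in places. For the MHC class II list, cells with at least 3 UMIs (784 medial, 778 lateral) were set against cells with at most 1 (772 and 795). For the proliferation list, cells with at least 2 UMIs (771 and 798) were set against cells with 0 (612 and 637). In cells high in the disease-associated list (Lpl, Cst7, Igf1, Gpnmb, Lgals3, Fabp5, Axl, Itgax, Csf1, Ccl6 and Ch25h, of which Igf1, Gpnmb, Lgals3 and Fabp5 are also among the genes most like Spp1), Spp1 was at 78.7 per 10000 UMIs in 509 medial and 91.7 in 543 lateral cells. In cells low in that list it was at 18.6 in 531 medial and 21.8 in 512 lateral cells, a log2 ratio of upper over lower of 2.09 (2.03 to 2.14) and 2.08 (2.03 to 2.12). Against the cytokine and NF-kB list, Spp1 was lower in the upper cells, with log2 ratios of -0.87 (-0.91 to -0.82) and -0.83 (-0.88 to -0.79). The same direction was seen for the homeostatic list (-0.71 medial, -0.36 lateral), the immediate early list (-0.50, -0.31), the proliferation list (-0.17, -0.43) and the MHC class II list (-0.26, -0.11). Counting intervals leave out the wide spread of Spp1 over cells, so the smaller of these ratios are not resolved from 0.

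Spp1 was higher in cells high in glycolysis and hypoxia genes (0.40 medial, 0.42 lateral). For the interferon list the values were 0.25 (0.21 to 0.29) in medial and -0.02 (-0.06 to 0.02) in lateral cells. Depth went with Spp1 as well: the 25% of cells with most UMIs before thinning were higher in Spp1 by a log2 ratio of 0.38 (0.33 to 0.42) in medial and 0.80 (0.76 to 0.84) in lateral cells. Deep cells reached 66.7 per 10000 in the lateral and 47.4 in the medial library, whereas shallow cells were at 38.3 and 36.5. Within these upper and lower groups, the log2 ratio of medial over lateral for Spp1 was below 0 in 17 of 18, from -0.49 in the deepest cells to 0.09 in the cells lowest in homeostatic genes. Each library was cut at its own counts, and the upper cuts differed except for the MHC class II and proliferation lists. They were 43 medial and 32 lateral UMIs for cytokine and NF-kB, and 54.5 and 59 for homeostatic genes. For depth they were 14418.5 and 13315 UMIs. Where cuts differed, the ratio does not compare cells of matched state or depth. The groups are overlapping cuts of the same cells of 1 library per region, so 17 of 18 is not repeated support for that order. The counting interval of the medial over lateral ratio included 0 in 3 of the groups: cells low (-0.01) and high (-0.02) in glycolysis genes and cells high in interferon genes (-0.01). Counting intervals leave out the spread over cells, where the variance of Spp1 was 72.6 times its mean in medial and 77.8 times in lateral cells. An interval off 0 therefore does not resolve a difference between the regions, or between the upper and lower cells of a list.

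Among the receptors, Cd44 had the largest ratios between these states, but from few UMIs. Its level was lower in cells high in homeostatic genes in both libraries, from 29 against 71 UMIs in medial and 32 against 74 in lateral cells. Cd44 was at 0.146 per 10000 UMIs in the medial cells high in homeostatic genes and 0.343 in those low in them, a log2 ratio of -1.23 (-1.91 to -0.59), and at 0.1495 and 0.340 in lateral cells, -1.19 (-1.83 to -0.57). With the disease-associated list Cd44 had ratios of 1.02 (0.43 to 1.63) in medial and 0.41 (-0.15 to 0.99) in lateral cells, and of 0.58 and 0.15 with cells thinned to 2400 UMIs. With the glycolysis and hypoxia list they were -0.66 (-1.26 to -0.07) in medial and 0.17 (-0.42 to 0.76) in lateral cells, and with the MHC class II list 0.66 (0.19 to 1.15) and -0.50 (-0.98 to -0.03). At 2400 UMIs the glycolysis values were -0.62 medial and -0.55 lateral, no longer opposite, and the MHC class II values were 1.03 and -0.097, the lateral one close to 0. The homeostatic values were -0.93 and -0.84 at that depth. Itgb5 went the other way for the homeostatic list, with 13.4 in upper and 10.8 in lower medial cells (0.31, 0.23 to 0.39) and 12.7 and 11.0 in lateral cells (0.20, 0.12 to 0.28). Itgb5 was also higher in the upper cells of other lists: cytokine and NF-kB (0.25 medial, 0.08 lateral), immediate early (0.23, 0.11) and MHC class II (0.21, 0.14). For the disease-associated, interferon and proliferation lists its sign differed between the libraries, and for glycolysis the ratios were 0.07 and 0.06. The Itgb5 ratios lay between -0.04 and 0.31 over all 8 lists and both libraries. For Itgav every one of the 8 lists had an interval that included 0 in both libraries.

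**Figure D4:**
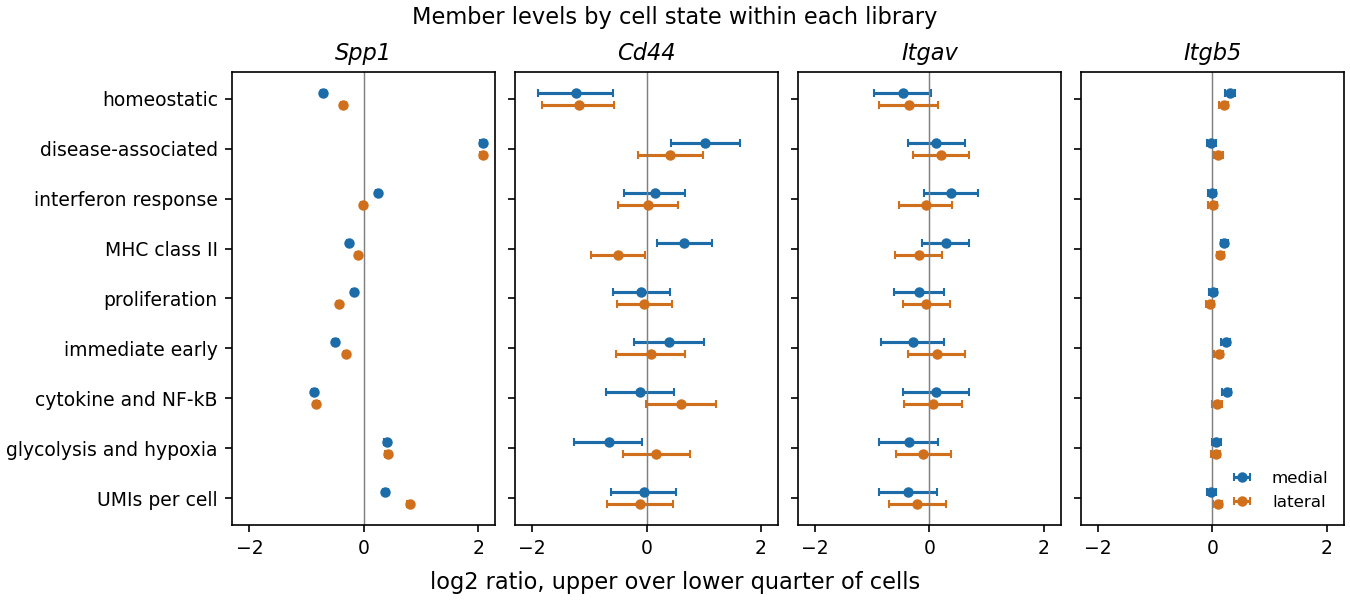
Log2 ratio of the upper over the lower 25% of cells (larger groups where counts tie) for 8 gene lists and for UMIs per cell, 1 panel per gene, medial and lateral, with 95% counting intervals at 4000 UMIs. Spp1 is at 2.09 and 2.08 for the disease-associated list, Cd44 at -1.23 and -1.19 for the homeostatic list, and Itgb5 stays within -0.04 and 0.31.

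Cells with marker sets of other types were higher in Spp1 and also deeper. At least 3 UMIs from at least 2 genes of one other list were found in 257 medial and 185 lateral cells, mostly through the endothelial list (215 and 158 cells) and the border macrophage list (57 and 30 cells). This cut was made on counts before thinning, so deeper cells pass it more easily. The endothelial set came almost wholly through Pecam1 and Flt1 and the border macrophage set through Pf4 and Ms4a7. Passing the cut therefore does not show that a cell is of another type. Spp1 was also higher in deeper cells, and the part of depth in the values that follow was not tested. Spp1 was at 7739 CPM in the medial and 9941 CPM in the lateral cells with the border macrophage set, against 4424 and 5314 CPM in the others. Those cells had medians of 13751 and 12532 UMIs, against 10657 and 9631. In cells with the endothelial set Spp1 was at 6877 and 7496 CPM, with medians of 14397 and 13886.5 UMIs. The part of these cells in the Spp1 level was not tested beyond leaving them out: without the border macrophage set the log2 ratio of the libraries was -0.26, and without the endothelial set -0.31. No doublet caller was run, and without the 2% deepest cells the ratio was -0.21.

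Among genes that act on osteopontin or share its receptors, Itga4 and Src were past a ratio of 1.2, both on the medial side. The 6 pathway lists held 61 genes, of which 37 had at least 100 UMIs and 12 had none in either library. Of the 37, 2 were past a ratio of 1.2 on the medial and 0 on the lateral side, beside 7.42% and 7.49% of all genes, and their median log2 ratio was 0.02 against -0.04 over all genes. With each cell counted alike the counts were 6 medial and 1 lateral of 37, beside 8.14% and 10.01% of all genes, so the count changed with the weighting of cells. The relatives of osteopontin (Ibsp, Dmp1, Dspp, Mepe), which build bone and tooth matrix, had no UMI in any cell.

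Among 10 enzymes that act on osteopontin, 4 had at least 100 UMIs, with a median log2 ratio of 0.14 and none past a ratio of 1.2. Fam20c, the kinase of secreted phosphoproteins, was the most abundant, at 112 CPM in medial and 128 CPM in lateral cells (ratio on the log2 scale -0.19, -0.27 to -0.11). Of 8 other chains of osteopontin receptors, 5 had at least 100 UMIs, with a median of 0.01. Itgb1, the beta 1 chain, was at 116 and 115 CPM, and Itgb3, the beta 3 chain, was at 11.7 and 13.4 CPM, so Itgb5 was the most abundant of the measured beta chains that pair with alpha v; Itgb6 had no UMI and Itgb8 had 3 over both libraries. Itga5, the alpha 5 chain, was at 67.7 and 56.8 CPM (log2 ratio 0.25, 0.15 to 0.36), within a ratio of 1.2. Itga4, the alpha 4 chain, was past a ratio of 1.2 on the medial side, at 2.77 and 1.74 CPM from 65 and 40 UMIs (log2 ratio 0.68, 0.09 to 1.28).

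Of 7 other ligands of alpha v integrins 4 had at least 100 UMIs, with a median of -0.03, none past a ratio of 1.2, and Tgfb1, whose latent form alpha v integrins bind, the most abundant at 435 and 419 CPM. Of 15 genes of the CD44 axis 10 had at least 100 UMIs, with a median of 0.02 and none past a ratio of 1.2. Srgn, a proteoglycan that CD44 binds, was at 500.4 and 453 CPM, and Msn, which links CD44 to actin, at 282 and 298 CPM, while the hyaluronan synthases Has1, Has2 and Has3 had 1, 0 and 7 UMIs in all. Of 17 integrin activation and signalling genes 14 had at least 100 UMIs, with a median of 0.02. Rap1b, a small GTPase of integrin activation, was the most abundant at 547 and 535 CPM, and the kinase Src was past a ratio of 1.2 on the medial side, at 7.81 and 6.46 CPM (log2 ratio 0.27, -0.05 to 0.59).

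**Figure D5:**
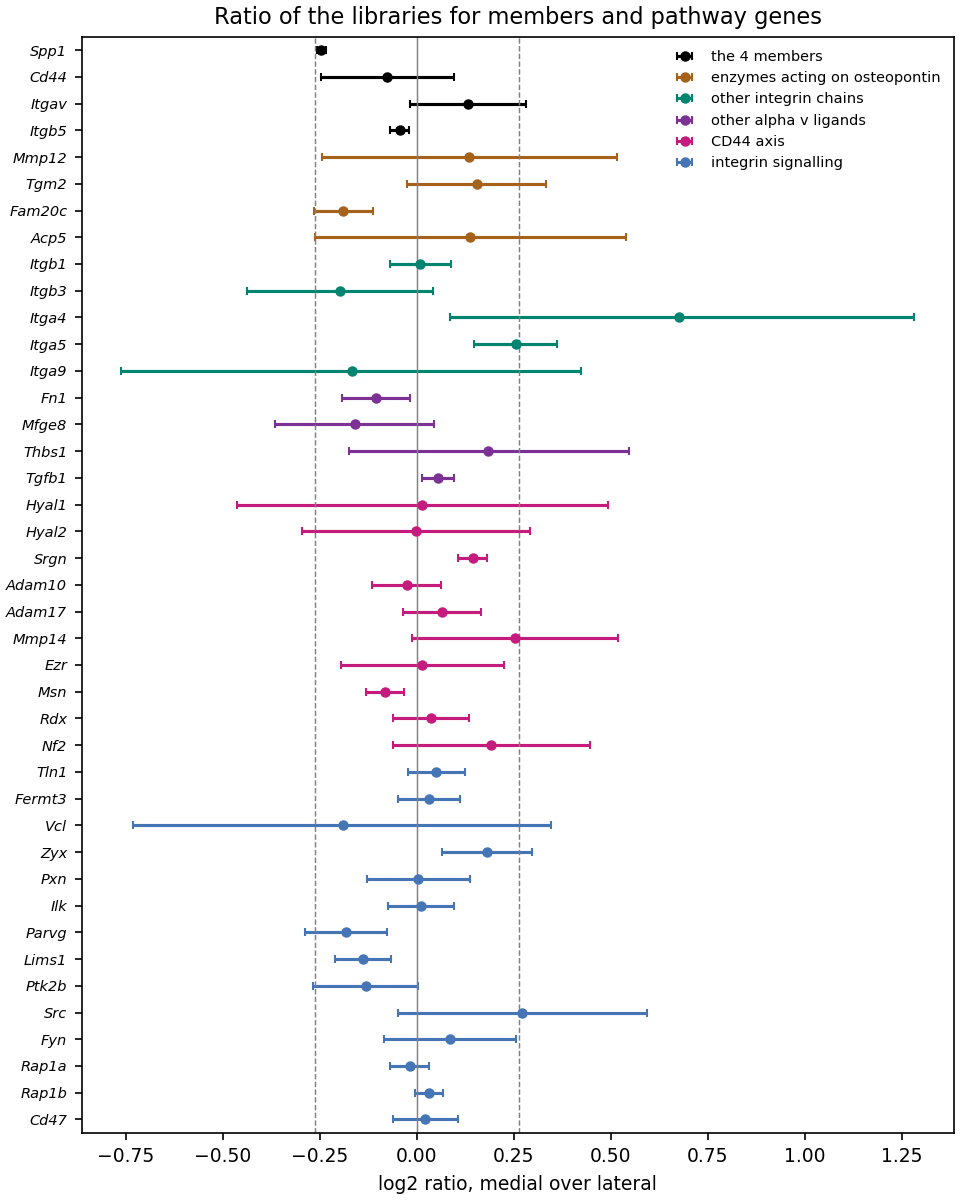
Log2 ratio of the medial over the lateral library for the 4 members and the 37 pathway genes with at least 100 UMIs, with 95% counting intervals; dashed lines mark a ratio of 1.2 either way. Itga4 and Src lie past the line on the medial side, and Spp1 lies just inside it on the lateral side at -0.25.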

How the data were processed

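Single-cell libraries of 1 medial and 1 lateral sample were used as deposited: whole-number UMI counts per gene and barcode for 737280 barcodes, with no cell filter or normalisation in the files. The submitters' processing notes name Cell Ranger 2.0.1, STAR and the mm10 build, without the annotation release. The 56 symbols with several IDs were summed. Cells were barcodes with at least 2400 UMIs and at most 10% mitochondrial UMIs, which removed 3 barcodes per library; they held 81.8% of 28660496 medial and 82.4% of 27955414 lateral UMIs. Values were computed in Python 3.11.15 with numpy 2.4.6 and scipy 1.17.1. Levels have exact Poisson, shares exact Clopper-Pearson and ratios exact conditional binomial 95% intervals, which cover counting error only. The ratio and its interval were tested on simulated Poisson counts, the error that the interval assumes. That test leaves out the spread over cells and so does not bear on it. Coordinates are from GENCODE M21 (GRCm38) by gene ID, and sequences from RefSeq (GRCm38.p6). Of 1155 windows of 50 bases in the last 500 of the Spp1 coding transcripts, 95 were shared with Gm42793, which overlaps Spp1 on the same strand; the receptors shared none. The text names the members, the most abundant gene of each pathway list, list genes past a ratio of 1.2, and genes by likeness; the order by Spp1 shows the 3 genes most like it, Lgals3 and the 2 least like it, and Itgb3, Msn and others were named after their values were seen. Members and lists were chosen with earlier results of these data known.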

Additional observations from a re-analysis of the deposited data

Results flagged for a closer look

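Cd44 had values of opposite sign in the libraries for MHC class II genes at 4000 UMIs. Cells with at least 3 UMIs of that list against cells with at most 1 had a log2 ratio of 0.66 (0.19 to 1.15) in medial and -0.50 (-0.98 to -0.03) in lateral cells. The values were opposite in direction with 1 library per region, and the difference was not tested. With cells thinned to 2400 UMIs the values were 1.03 and -0.097, so the lateral value lay close to 0 at that depth. Spp1 appeared in barcodes of at most 100 UMIs, outside the cells compared, at 5042 CPM in the medial and 6181 CPM in the lateral library, above its level in cells. These levels came from 22118 and 25759 UMIs, above the 3 UMIs that a count of 0 allows.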

How the results depend on the processing

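The log2 ratio of medial over lateral for Spp1 was below 0 under all 13 alternatives run, and past a ratio of 1.2 under 4: -0.27 with a mitochondrial limit of 5%, -0.33 without cells holding marker sets of other types, -0.26 without the border macrophage and -0.31 without the endothelial set alone. It was -0.17 and -0.19 with cells thinned to 4000 and 2400 UMIs, -0.21 without the 2% deepest cells, -0.20 with each cell counted alike and -0.21 centred on the median gene. The cause was not tested. Alternatives without the border macrophage or endothelial set, or with 5% free RNA, were chosen after seeing the data. Cd44 moved to 0.14 at 2400 UMIs, Itgav to -0.079 at 4000, and Itgb5 to -0.017 at 4000 and -0.0078 when centred. Pathway genes past a ratio of 1.2 numbered 3 medial and 1 lateral of 39 with at least 30 UMIs (10.6% and 10.1% of all genes), 7 and 2 of 45 with no minimum (16.5% and 15.1%), 2 and 2 of 30 at 4000 UMIs (8.39% and 10.04%), 6 and 1 of 37 with each cell alike (8.14% and 10.01%), and 4 and 0 of 37 when centred (9.45% and 5.45%). The upper over lower ratio of Itgav in medial cells turned to -0.14 for the interferon list and 0.38 for the immediate early list at 2400 UMIs. For Cd44 in lateral cells the glycolysis value turned from 0.17 to -0.55, the proliferation value from -0.04 to 0.74 and the depth value from -0.11 to 0.53. For Spp1 the proliferation value in lateral cells went from -0.43 to -0.71 and the depth value in medial cells from 0.38 to 0.58. No paired analysis was possible because each region has 1 library, so no replicate could be left out either. Depth limits Cd44 and Itgav, with a UMI in 9.18% and 11.6% of medial cells at 4000 UMIs.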
